A study of Arabidopsis thaliana with 4 samples.

Results

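Chitinases cut chitin, the polymer of N-acetylglucosamine that makes up much of the wall of fungi and the cuticle of insects. Plants contain no chitin wall of their own, and many of their chitinases are secreted proteins counted among the pathogenesis-related proteins of infected leaves, although a few act in growth. The plant enzymes belong to a pair of unrelated structural families, glycoside hydrolase families 18 and 19, and tandem duplication has left several of their genes side by side.

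A run of 6 chitinase-type genes on chromosome 2 of Arabidopsis thaliana, from CHI (AT2G43570) to AT2G43620, is described here in leaves. The genes were chosen by their place in this run and with their signals in the same arrays already in view, so the comparison of genotypes below is a description of them and not an independent test. All 6 were measured, each by 1 probe set paired with that gene alone, out of 22746 probe sets tested on the array and 13286 loci named among them. In the TAIR10.1 gene order the 6 follow one another, apart from 2 loci of non-coding RNA inside the run. Positions are not given because no genome build is stated for the arrays. A gene called measured here is one that the annotation used names by a probe set of 1 gene. The 8730 probe sets it does not name and the 503 it pairs with several genes may include others. The tables used here name only CHI as a chitinase, and the type of the other 5 rests on their known family, glycoside hydrolase family 19.

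Total RNA came from expanded leaves of plants kept in short days, with 2 arrays from Columbia, the reference accession, and 2 from the jaw-D mutant. In jaw-D an activation-tagging insertion at the locus of the microRNA miR319a leads to its overexpression. The microRNA directs cleavage of the transcripts of a group of TCP transcription factors, which restrain cell proliferation in the growing leaf. The labels give no plant age, and they do not say whether arrays of a genotype came from separate plants, so the spread between them may be technical. None of the 5 TCP targets was named on the array and they are not analysed here. The labelled tissue was checked with the leaf gene RCA, the activase of Rubisco, which read 7869 to 10770 over the 4 arrays, and with LHCB4.1, a chlorophyll-binding antenna protein, at 10115 to 13089.

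Signals below are the deposited linear intensities. Differences are jaw-D minus Columbia on the log2(signal + 16) scale, which makes the differences of dim genes smaller, whether they come from transcript or from background. Each probe set has its own binding strength, so signals are compared between arrays and not between genes. No detection calls were used here, and the background of a probe set is unknown. In bulk leaf RNA, a change in the number of cells that express a gene and a change in RNA per cell cannot be told apart.

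Along the cluster, the 1st, 3rd and 6th genes were higher in jaw-D and the 3 others were not. CHI, AT2G43590 and AT2G43620 had log2 differences of 1.68, 1.62 and 1.96. AT2G43580, AT2G43600 and AT2G43610 had -0.16, -0.07 and -0.35. The 3 positive differences equal 3.20-fold, 3.08-fold and 3.88-fold in signal plus the constant of the log2 scale. They are not ratios of the signals themselves. With a smaller constant, of 1, the differences of CHI, AT2G43590 and AT2G43620 were 1.83, 2.23 and 2.86. With a larger constant, of 64, they were 1.35, 0.90 and 1.06. Both jaw-D arrays lay above both Columbia arrays for 3 of the 6 genes, against 17.5% of all probe sets, and both lay below for 1 gene, against 26.5% of all probe sets. The arrays overlapped for the other 2.

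No gene of the cluster passed the test over all probe sets. With limma and Benjamini-Hochberg adjustment at 0.05, 0 of 6 were called, where 0.189% of all probe sets were called, 0.0352% as higher and 0.154% as lower in jaw-D. The same shares stand beside the counts of calls for the other groups of genes below. For groups this small, 0 calls is close to those shares. At an unadjusted p under 0.05 by limma there were 3 of the 6, namely CHI, AT2G43590 and AT2G43620, and 2957 of all 22746. The 6 were chosen with these signals in view, so that count only describes them. The median log2 difference over the 6 genes was 0.78, beside -0.04 over all probe sets. The genes lay at 1.62 to 1.96 or at -0.35 to -0.07, so none was near this median and it describes no shift of the whole cluster.

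**Figure D1:**
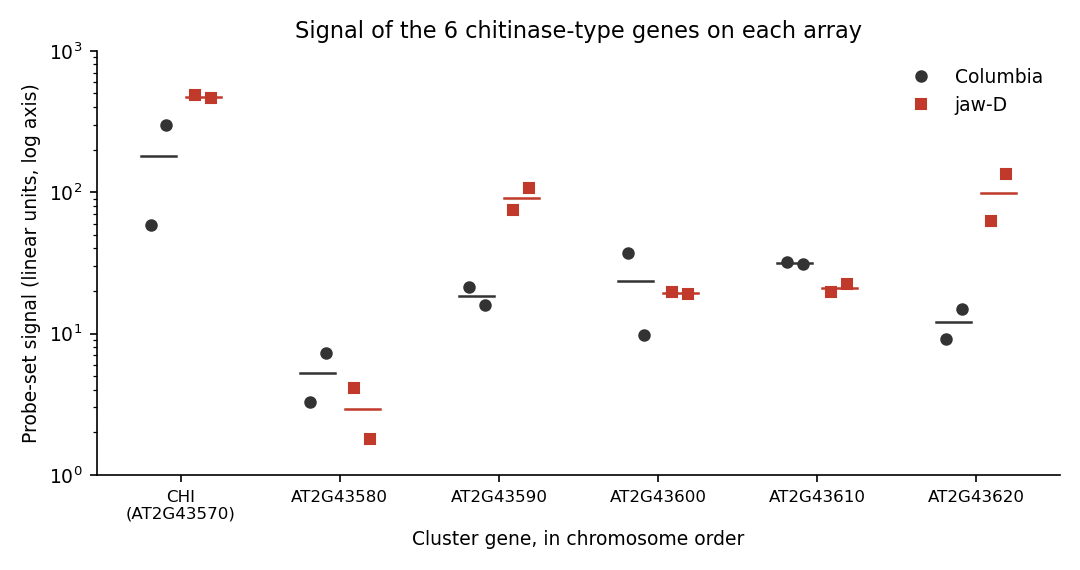
Signal of each cluster gene (vertical axis, linear units on a log axis) on the 2 Columbia arrays (circles) and the 2 jaw-D arrays (squares), with genes in chromosome order and short lines at the genotype means. The jaw-D squares stand above the Columbia circles for CHI, AT2G43590 and AT2G43620, and the circles of CHI are far apart, at 58.2 and 300.4.

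CHI, the first gene of the run, had the largest SE of the 6 differences. Its signals were 58.2 and 300.4 on Columbia arrays 1 and 2, and 482.6 and 464.9 on jaw-D arrays 1 and 2. The jaw-D arrays lay close together, and the signal on Columbia array 2 was 5.16-fold that on Columbia array 1, with no constant added. Means were 179 ± 171 in Columbia and 474 ± 12.5 in jaw-D (SD, n = 2 arrays each), and the log2 difference of 1.68 had an SE of 0.63.

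The gap between the Columbia arrays was itself large for this gene. On the log2 scale it was 2.09, and only 7 of 22746 probe sets (0.0308%) had a gap between the Columbia arrays of at least that size, 3 of them with array 2 as the higher. Among the brighter 11373 probe sets, cut at the median of mean log2 signals and holding CHI alone of the cluster, 4 had such a gap, and the median gap was 0.15. Without Columbia array 1 the difference of CHI was 0.63, and without Columbia array 2 it was 2.72. Both jaw-D signals of CHI were above both Columbia signals, so leaving out a Columbia array could not change the sign. The choice of Columbia array set whether the difference was modest or the greatest in the cluster. The ribosomal RNA control (25S) read 3146 and 800.4 on Columbia arrays 1 and 2 and 2760 and 407.9 on jaw-D arrays 1 and 2. That control was lower on array 2 in both genotypes, whereas CHI was higher on array 2 in Columbia and alike on both arrays in jaw-D. Its part in the result was not tested.

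Of 13430 other probe sets with 1 named gene, the nearest to CHI in the shape of the profile over the 4 arrays was AT2G05540. The measure was the Euclidean distance between log2 profiles, each minus its own mean, and it was 0.69. AT2G05540 read 310.1 and 880.8 in Columbia and 2276 and 1299 in jaw-D. It was picked by likeness on these same arrays, so a Columbia gap and higher jaw-D signals follow from the choice. Its Columbia gap was 1.46 on the log2 scale, against 2.09 for CHI, and its jaw-D arrays were further apart than those of CHI. AT1G12320 came next, at a distance of 0.94, with 10.5 and 41.4 in Columbia and 85.3 and 55.7 in jaw-D. With 4 arrays such a likeness is a description only.

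AT2G43590, the third gene, was dim in Columbia and several-fold brighter in jaw-D. It read 21.2 and 15.9 on Columbia arrays 1 and 2, and 75.3 and 107.2 on jaw-D arrays 1 and 2. The genotypes were well apart, and even the closest pair of arrays across genotypes differed by 1.30 on the log2 scale. Means were 18.6 ± 3.75 and 91.3 ± 22.6 (SD, n = 2 each), with a log2 difference of 1.62 (SE 0.20). Leaving out any 1 array gave 1.41 to 1.84.

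AT2G43620, the last gene, had the greatest difference of the 6 as reported, though CHI was above it in 3 settings. In Columbia it read 9.2 on array 1 and 14.9 on array 2, and in jaw-D 62.6 on array 1 and 133.4 on array 2. Both Columbia signals were under 16, and the jaw-D arrays lay well above them but apart from each other. Means were 12.1 ± 4.03 and 98.0 ± 50.1 (SD, n = 2 each), with a log2 difference of 1.96 (SE 0.32). The closest and the widest pairs of arrays across genotypes differed by 1.35 and 2.57. Because of the low Columbia signals the size depends on the pseudocount, and it was 2.86 with a pseudocount of 1 and 1.06 with one of 64, where CHI had 1.35. CHI was also above it without Columbia array 2, where CHI had 2.72, and without jaw-D array 2, at 1.70 against 1.49.

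Within jaw-D the 3 higher genes did not vary in the same way. AT2G43590 and AT2G43620 were both higher on jaw-D array 2, by 0.43 and 0.93 on the log2 scale. CHI differed between these arrays by -0.05. Between the Columbia arrays CHI differed by 2.09, AT2G43620 by 0.29 and AT2G43590 by -0.22.

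The 3 other genes of the cluster lie between these and stayed dim in both genotypes. AT2G43580, which sits between CHI and AT2G43590, read 3.3 and 7.3 in Columbia and 4.1 and 1.8 in jaw-D. All 4 of its signals were under 16 and the genotypes overlapped, with a log2 difference of -0.16 (SE 0.17).

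AT2G43600, the fourth gene, read 37.2 and 9.8 in Columbia and 19.8 and 19 in jaw-D. Both jaw-D signals fell between the Columbia ones, so the genotypes overlapped, and the log2 difference was -0.07 (SE 0.34). It was -0.59 without Columbia array 2 and 0.46 without Columbia array 1, and therefore has no settled direction.

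AT2G43610, the fifth gene, read 31.8 and 30.8 in Columbia and 19.8 and 22.4 in jaw-D. It was the 1 gene of the cluster whose jaw-D arrays both lay below the Columbia arrays, with a log2 difference of -0.35 (SE 0.15). The difference kept its sign in all 11 settings in which the gene was tested, and so did the negative one of AT2G43580, while AT2G43600 was below 0 in 8 of 11. CHI was above 0 in 12 of 12 settings, and AT2G43590 and AT2G43620 in 11 of 11. Much of this was fixed in advance. Fitting an intensity trend or the replicate number as a block leaves a log2 difference unchanged. Leaving out an array cannot reverse genotypes whose arrays do not overlap. The signals of AT2G43580 overlapped and were all under 16, so these counts do not settle its direction.

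**Figure D2:**
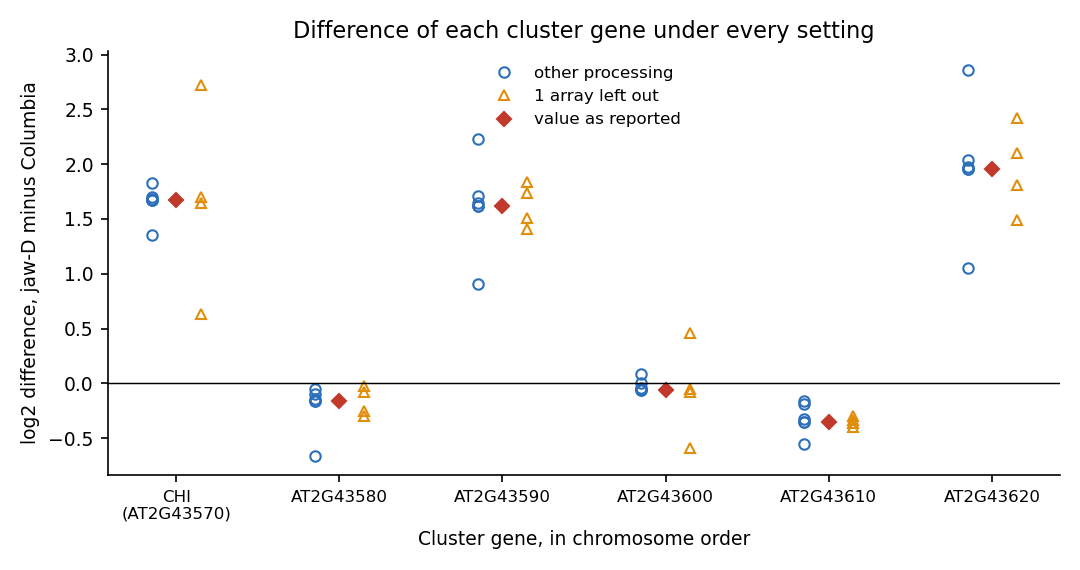
Log2 difference, jaw-D minus Columbia (vertical axis), of each cluster gene as reported (diamonds), under other processing (circles) and with 1 array left out (triangles). CHI ranges from 0.63 to 2.72 when 1 array is left out, AT2G43590 and AT2G43620 stay above 0.90, and AT2G43600 lies on both sides of 0.

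The genes on either side of the cluster showed no difference of that size. Of the 8 reference loci on each side, 9 of 16 were measured and 0 were called by limma, with a median log2 difference of 0.00 and a range of -0.51 to 0.41. AT2G43560, next to CHI, read 1316 and 1376 in Columbia and 1190 and 1490 in jaw-D, a log2 difference of -0.01 (SE 0.17). AT2G43630, next to AT2G43620, read 485.2 and 484.6 in Columbia and 500.7 and 537.2 in jaw-D, a log2 difference of 0.09 (SE 0.15). Its jaw-D arrays were both higher by a small margin, whereas those of AT2G43560 spanned the Columbia ones.

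The remaining neighbours before the cluster were AT2G43530, AT2G43535, AT2G43540 and AT2G43550, with log2 differences of 0.24, 0.19, 0.00 and 0.41. Only AT2G43550 of these had both jaw-D arrays above both Columbia arrays, at 1356 and 1243 against 1215 and 780.2. After the cluster, AT2G43640, AT2G43660 and AT2G43670 had -0.08, 0.00 and -0.51. AT2G43670 read 22.8 and 22.2 in Columbia and 9.7 and 12.4 in jaw-D and was the lowest of the measured neighbours (SE 0.15, adjusted p = 0.272 by limma). The difference between cluster and neighbours was not tested, since the cluster was chosen with its values known.

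**Figure D3:**
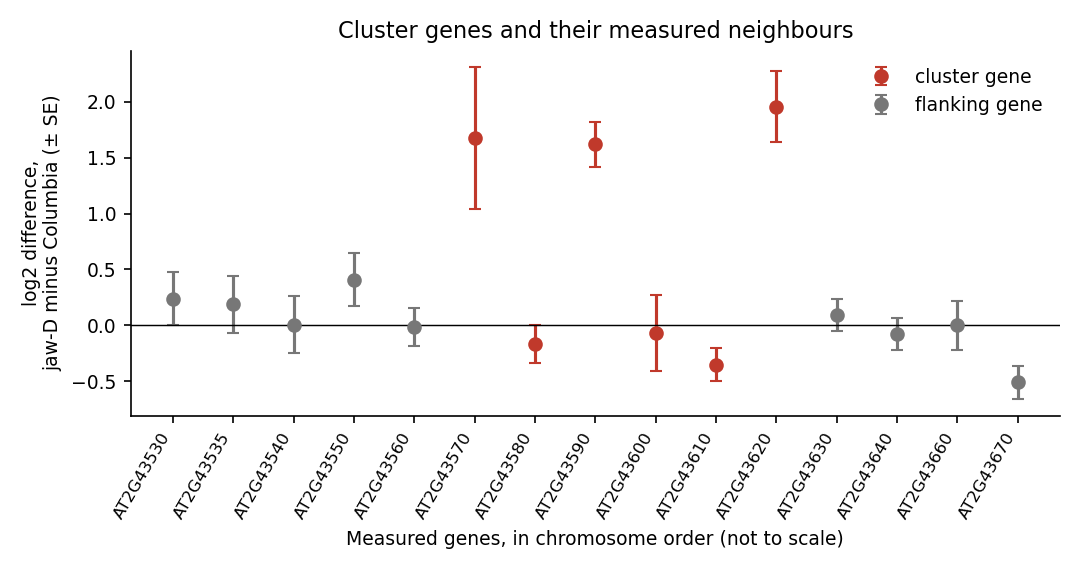
Log2 difference, jaw-D minus Columbia, with its SE (vertical axis) of the 6 cluster genes and the 9 measured flanking genes in chromosome order, not to scale. CHI, AT2G43590 and AT2G43620 lie at 1.62 to 1.96, and the flanking genes at -0.51 to 0.41.

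Elsewhere in the genome, 4 of 8 other family 19 genes were measured, so that 10 of 14 members of the family had a value. None of the 4 was called by limma, and their median log2 difference was -0.24. AT1G02360 came nearest to the higher genes of the cluster, with 44.9 and 32.1 in Columbia and 103.4 and 130.0 in jaw-D. Both jaw-D arrays were above both Columbia arrays, and the log2 difference was 1.29 (SE 0.19, adjusted p = 0.110 by limma). AT3G47540 was brighter in Columbia, with 218.3 and 216.2 against 173.8 and 163.5 in jaw-D, a log2 difference of -0.34 (SE 0.14, adjusted p = 0.410 by limma). AT4G01700 had -0.29, also with both jaw-D arrays lower. AT1G56680 read under 16 on all 4 arrays, between 1.5 and 9.4, and had -0.19.

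Of 10 family 18 genes, which have a different protein fold, 5 were measured and 0 were called by limma, with a median of 0.07. ChiC (AT4G19810), a class V chitinase, read 29.2 and 30.7 in Columbia and 34.7 and 40.5 in jaw-D, a log2 difference of 0.22 (SE 0.15). AT4G19820, from the same run of loci, read 36.7 and 27.5 in Columbia and 16.6 and 14.4 in jaw-D, with -0.60 (SE 0.17, adjusted p = 0.259 by limma). The genotypes were apart for both genes, in opposite directions. AT4G19720, AT4G19730 and AT4G19740 overlapped between genotypes, with 0.07, 0.26 and -0.32, and were under 16 on 2, 4 and 3 of the 4 arrays.

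**Figure D4:**
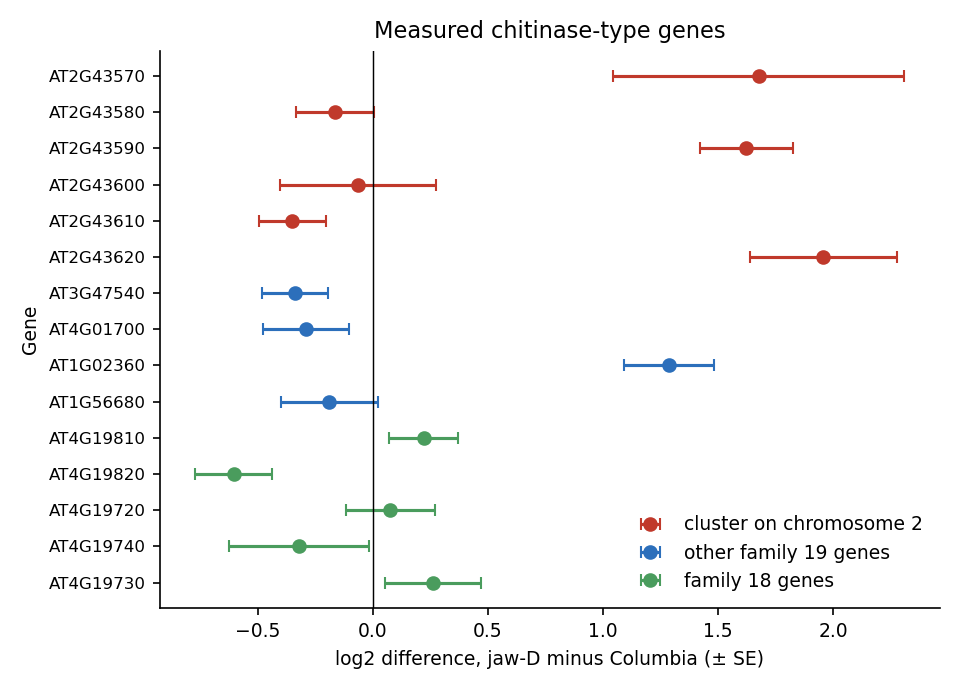
Log2 difference, jaw-D minus Columbia, with its SE (horizontal axis) of the 6 cluster genes, 4 other family 19 genes and 5 family 18 genes. Besides CHI, AT2G43590 and AT2G43620, only AT1G02360, at 1.29, lies above 1.

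Chitinases are usually described together with other induced defence proteins, and the annotation used here names few of these. Among 10 pathogenesis-related proteins and glucanases, 3 had a value and 0 were called by limma. OSM34, an osmotin-like protein, read 31.9 and 14.5 in Columbia and 1.5 and 1.9 in jaw-D, a log2 difference of -1.11 (SE 0.24, adjusted p = 0.193 by limma). A negative difference was found for 56.9% of all probe sets. AT4G16260 read 3.6 and 3.0 in Columbia and 4.9 and 21.1 in jaw-D, with 0.53 (SE 0.28), and PR-1-LIKE had 0.08. 

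Of 15 salicylate defence genes, 2 were measured, 0 were called and both were lower on both jaw-D arrays, as were 26.5% of all probe sets. GRX480, a glutaredoxin induced by salicylate, read 67.9 and 51.6 in Columbia and 21.3 and 38.5 in jaw-D, with -0.74 (SE 0.23, adjusted p = 0.297 by limma). SAG101, a partner of the immune regulator EDS1, had -0.32, and its closest pair of arrays across genotypes differed by -0.01. Any relation of these defence genes to the cluster was not tested.

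Of 14 jasmonate and ethylene defence genes, 3 were measured and 1 was called, as lower, where 0.154% of all probe sets were. That was the defensin gene PDF1.2b, at 209.2 and 222.0 in Columbia and 66.7 and 67.3 in jaw-D, which fell by 1.48 (SE 0.14, adjusted p = 0.0420 by limma). The call was lost with a pseudocount of 1 (limma, adjusted p = 0.214), where 0 of all probe sets were called. It was also lost without any 1 of the 4 arrays, as were all other calls, so these losses are not particular to this gene. Its difference without 1 array was -1.52 to -1.44. PDF1.2b was called in 6 of 12 settings, the reported one included. Its probe set is of a design that can also bind related transcripts. PDF1.2 had -1.56 (limma, adjusted p = 0.0542), and THI2.1, a thionin gene, had -0.42 with overlapping arrays. For chitin perception 1 of 8 genes was measured, AT5G18610, at 0.9 to 5.2 on the 4 arrays with a log2 difference of -0.15.

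Markers of other tissues and of ageing leaves were compared beside the cluster. Of 5 root genes 4 were measured and 0 called, with EXPA18, a root-hair expansin, at -0.49, PYK10, a beta-glucosidase, at 0.17 and AT5G17820 at -0.11, and with a range of -0.49 to 0.17. No flower marker of 5 was measured. Of 6 senescence genes 2 were measured and 0 called. WRKY6, a transcription factor of ageing and defence, read 15.8 and 8.4 in Columbia and 24.1 and 48.1 in jaw-D. Its log2 difference was 0.86 (SE 0.27, adjusted p = 0.293 by limma). It was higher on both jaw-D arrays, as were 17.5% of all probe sets. WRKY53 had -0.19 with overlapping arrays. The part of leaf age in the cluster's values was not tested. For the leaf genes, of which 2 of 7 were measured and 0 called, RCA had -0.17 and LHCB4.1 had -0.19.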

How the data were processed

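Expanded leaves were measured on 4 single-colour arrays, 2 of Columbia and 2 of jaw-D, grouped by the sample descriptions and numbered by the letters of the titles. The table the authors deposited holds 1 linear signal intensity per probe set and array, a unit read off from the values. Array means after leaving out the lowest and highest 2% of rows were all 200.02, so the authors had scaled the arrays alike. The software is not given in the sources used here. Per array, 17.8% to 22.3% of probe sets had signals under 16.

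After removal of 64 control rows, 22746 probe sets were tested as log2(signal + 16), with no further scaling since array medians (6.50 to 6.54) differed by less than 0.1. The model (limma 3.58.1 under R 4.3.3, functions lmFit and eBayes) was two-sided, with 2 residual and 3.76 prior degrees of freedom and Benjamini-Hochberg adjustment over all probe sets. An exact permutation test of 2 against 2 arrays cannot go below p = 0.333 and was not used. Array number limits the precision of every value. Genes came from the platform annotation (13513 probe sets with 1 gene, 503 with several, 8730 unnamed) and, by gene identifier, from TAIR10.1 (13436 matched), which also gave the gene order. A gene with several probe sets was represented by the brightest. Columns of the table left unassigned numbered 0. The figures were drawn with matplotlib 3.10.9.

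The cluster genes and the 11 lists (93 genes) were chosen with earlier results of these data known. Named genes are all cluster genes, all measured chitinase genes and flanking loci, up to 3 genes of each other list by smallest unadjusted p, and the 2 genes nearest in profile to each cluster gene whose mean log2 signal reached the median of all. Alternatives were quantile normalization, median centring, pseudocounts of 1 and 64, a filter on dim probe sets, an intensity trend, the replicate number as a block and leaving out each array.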

Additional observations from a re-analysis of the deposited data

How the results depend on the processing

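Over all probe sets the 43 calls became 36 with quantile normalization, 42 with median centring, 56 with a pseudocount of 64, 103 with an intensity trend, 287 when the brighter 11373 probe sets alone were tested, and 0 by limma with a pseudocount of 1 (2538 at an unadjusted p under 0.05). Leaving out each array gave 0 calls each time, with 1978 to 2492 at an unadjusted p under 0.05, and in these fits the spread of the single array is taken from the other genotype. The replicate block gave 66 calls and called 1 cluster gene, AT2G43620 (log2 difference 1.96, adjusted p = 0.0420 by limma, against 0.129 without the block), while PDF1.2b was no longer called (adjusted p = 0.0518 by limma). The deviations of same-numbered arrays had a correlation of -0.0743, while the 25S control was lower on array 2 in both genotypes (3146 and 800.4, 2760 and 407.9). What a number stands for is not stated, so the pairing is not established. In every other setting run 0 cluster genes were called, but the filter on dim probe sets kept CHI alone.

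The median difference of the 6 genes, 0.78 as reported, was 0.427 with a pseudocount of 64, and 0.543 to 0.784 without 1 array. It was not computed under the filter on dim probe sets. The median of the family 18 genes was 0.237 with quantile normalization and -0.122 to 0.180 without 1 array, so it has no settled sign. With pseudocounts of 1 and 64, AT2G43590 had 2.23 and 0.90, AT2G43580 had -0.66 and -0.05, and AT2G43610 had -0.55 and -0.16.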
